A study of Mus musculus with 3 samples.

Results

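The Hedgehog ligands Shh, Ihh and Dhh and 6 core genes of their pathway, Ptch1, Hhip, Smo, Gli1, Gli2 and Gli3, were followed through the differentiation of mouse embryonic stem (ES) cells towards hepatic cells. The 9 genes were taken by name from the gene column of an Agilent whole-genome array and together had 16 probes. All 9 were among the 28578 names with a value on all 3 arrays, and all 9 were among the 21653 that were well above background on at least 1 array and entered the comparisons. For Shh this held through the day 5 array alone, where it was highest; the other 8 genes were well above background on all 3 arrays.

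Total RNA of the ES cell line E14.1 was hybridised in 1 colour (Cy3) to 1 array per stage. The day 0 cells were undifferentiated ES cells kept on gelatin in serum-free N2 and B27 medium with LIF and BMP4. The day 5 cells, labelled definitive endoderm, had grown on collagen IV in that medium without LIF or BMP4 and with activin A added, and the day 7 cells, labelled early hepatic, had received BMP4 and basic FGF besides activin A for 2 more days. The stages were chosen by the submitters to view gene expression around the appearance of the endoderm factor Foxa2. All 3 stages share the same line and basal medium, and the protocol names no sorting step, so each array reads a whole culture. With 1 array per stage no difference below has a replicate check, and none has a test or a p-value.

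In the Hedgehog pathway a secreted, lipid-modified ligand binds the membrane protein Patched, which otherwise holds the membrane protein Smoothened inactive. Active Smoothened, at the primary cilium, shifts the Gli transcription factors from repressor to activator forms, and Gli1, Ptch1 and Hhip are themselves widely used target genes of the pathway. In the mouse embryo Ihh is known from visceral endoderm and gut epithelium, Shh from the node, notochord, floor plate and gut endoderm, and Dhh from Sertoli cells, Schwann cells and endothelium, while the Gli genes and Ptch1 are typical of the responding mesenchyme.

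Sequences are given for the genes on which the differences turn. The 250 bases before the annotated start of Ihh and of Gli2 are shown because Ihh had the largest difference of the 9 genes, between days 0 and 7, and because Gli2 was the only member whose promoter held the searched Gli motif. Both are RefSeq sequences of the assembly GRCm38.p6, written 5′ to 3′ on the gene's strand, with motif letters in capitals. The Ihh region lies at chr1:74951673-74951922 and the Gli2 region at chr1:119053620-119053869, both on the minus strand.
Ihh upstream region: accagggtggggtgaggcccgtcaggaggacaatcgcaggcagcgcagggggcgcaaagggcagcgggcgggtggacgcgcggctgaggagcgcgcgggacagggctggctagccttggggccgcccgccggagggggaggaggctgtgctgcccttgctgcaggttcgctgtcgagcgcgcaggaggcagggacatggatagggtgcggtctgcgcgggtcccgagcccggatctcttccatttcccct
Gli2 upstream region: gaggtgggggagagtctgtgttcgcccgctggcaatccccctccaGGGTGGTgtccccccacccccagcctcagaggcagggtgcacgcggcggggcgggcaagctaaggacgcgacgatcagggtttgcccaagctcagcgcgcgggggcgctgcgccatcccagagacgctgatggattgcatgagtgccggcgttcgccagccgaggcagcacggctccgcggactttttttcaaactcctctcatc

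The Gli2 capitals mark GGGTGGT, the reverse complement of the core ACCACCC of the Gli consensus, 205 bases before the start. The search covered both strands of 300-base promoters, from 250 bases before to 50 after the start, and 7 of the 9 members had an entry in the promoter table. The core stood in 1 of these 7, and in 1514 of all 32851 promoters (4.61%). The forkhead core TGTTTAC, reverse complement GTAAACA, was in none of the 7 and in 3.65% of all promoters. Ihh and Gli2 share a G- and C-rich upstream region, with 72.0% and 67.2% G or C and 24 and 22 CpG dinucleotides, against medians of 52.4% and 6 over all promoters. The other 5 members with an entry were also above that median, from 59.6% in Dhh to 78.4% in Ptch1. A match or its absence describes these letters in this window only.

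3 of the array's 60-base probes are shown, since they bear on how Gli1, Gli2 and Smo were read. They are the single probe of Gli1, the dimmer probe of Gli2 and the Smo probe whose positions are split. They come from the scanner files and are placed on build mm9 (NCBI37). No base is in capitals.
Gli1 probe A_51_P518548: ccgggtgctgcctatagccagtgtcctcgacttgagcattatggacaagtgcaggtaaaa
Gli2 probe A_52_P564620: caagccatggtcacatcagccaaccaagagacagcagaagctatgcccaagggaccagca
Smo probe A_52_P444864: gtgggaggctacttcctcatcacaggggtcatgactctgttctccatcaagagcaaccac

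The Gli1 probe lies at chr10:126767991-126768050 and this Gli2 probe at chr1:120732839-120732898, both on the minus strand. The Smo probe is placed at chr6:29705582-29706815 on the plus strand, so its 60 bases span 1234 bases of the genome. The exon or untranslated position of the other probes was not analysed here, since no annotation of this build was used. Probes of the Hedgehog genes are reported separately where a gene has more than 1, and their levels are not set against each other. Other genes are given by 1 probe each unless stated otherwise. Summed levels of marker lists add levels of different probes, so the brightest weigh most.

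Values are log2 processed signals minus the array's own 75th percentile, so a level of 0 is as bright as the spot at that percentile and a difference of 1 is 2-fold. The processed signal at the 75th percentile was 1564, 2051 and 2053 on days 0, 5 and 7, no gene spot was saturated, and between 70.9% and 71.7% of gene spots were well above background. The lowest level among probes well above background, the floor, lay between -7.04 and -6.76. Over the genes measured on both arrays the median difference was -0.13 between days 0 and 5, -0.20 between days 0 and 7 and -0.09 between days 5 and 7 (later minus earlier). The median SD between the spots of a probe printed 10 times was 0.076 to 0.080, which is the scatter within an array and not between cultures.

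The labels were set against defining genes of each stage. The pluripotency genes Pou5f1 (3.26, 0.88 and -0.88 on days 0, 5 and 7), Nanog (2.85, 0.21 and -1.20) and Zfp42 (6.65, 1.24 and -2.49) were highest on day 0. The endoderm genes Foxa2 (-4.22, 4.29 and 3.98), Sox17 (-2.65, 4.83 and 4.20) and Cxcr4 (-5.07, 1.33 and -1.08) were highest on day 5. The fetal liver and yolk sac genes Afp (-5.95, -5.29 and 3.83) and Ttr (-8.60, -4.37 and 0.94) were highest on day 7, whereas albumin (Alb: -8.53, -6.07 and -7.52) was not well above background on days 0 and 7.

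On day 5 the ligands Shh and Ihh were higher than on day 0, and Dhh was lower. Among the other genes Smo was higher while Gli1 and Gli2 were lower, and Ptch1, Hhip and Gli3 stayed within 2-fold. A gene was called higher or lower at a difference of at least 2-fold with the brighter array well above background. By this rule 3 of the 9 genes were higher and 3 were lower, against 16.5% and 16.1% of all genes compared (32.5% either way). Day 7 against day 0 gave 3 higher (Ihh, Smo and Hhip) and 3 lower (Dhh, Gli1 and Gli2), against 16.2% and 19.1% of all genes (35.3% either way). Day 7 against day 5 gave 1 higher (Ihh) and 1 lower (Shh), against 5.97% and 8.38% (14.3% either way). With 9 genes these counts describe the set and show nothing particular to it. The median difference of the 9 genes was 0.65, 0.39 and -0.26 in the same order, beside -0.11, -0.19 and -0.06 over all genes compared. The comparisons share an array in each pair, so their values are given side by side.

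**Figure D1:**
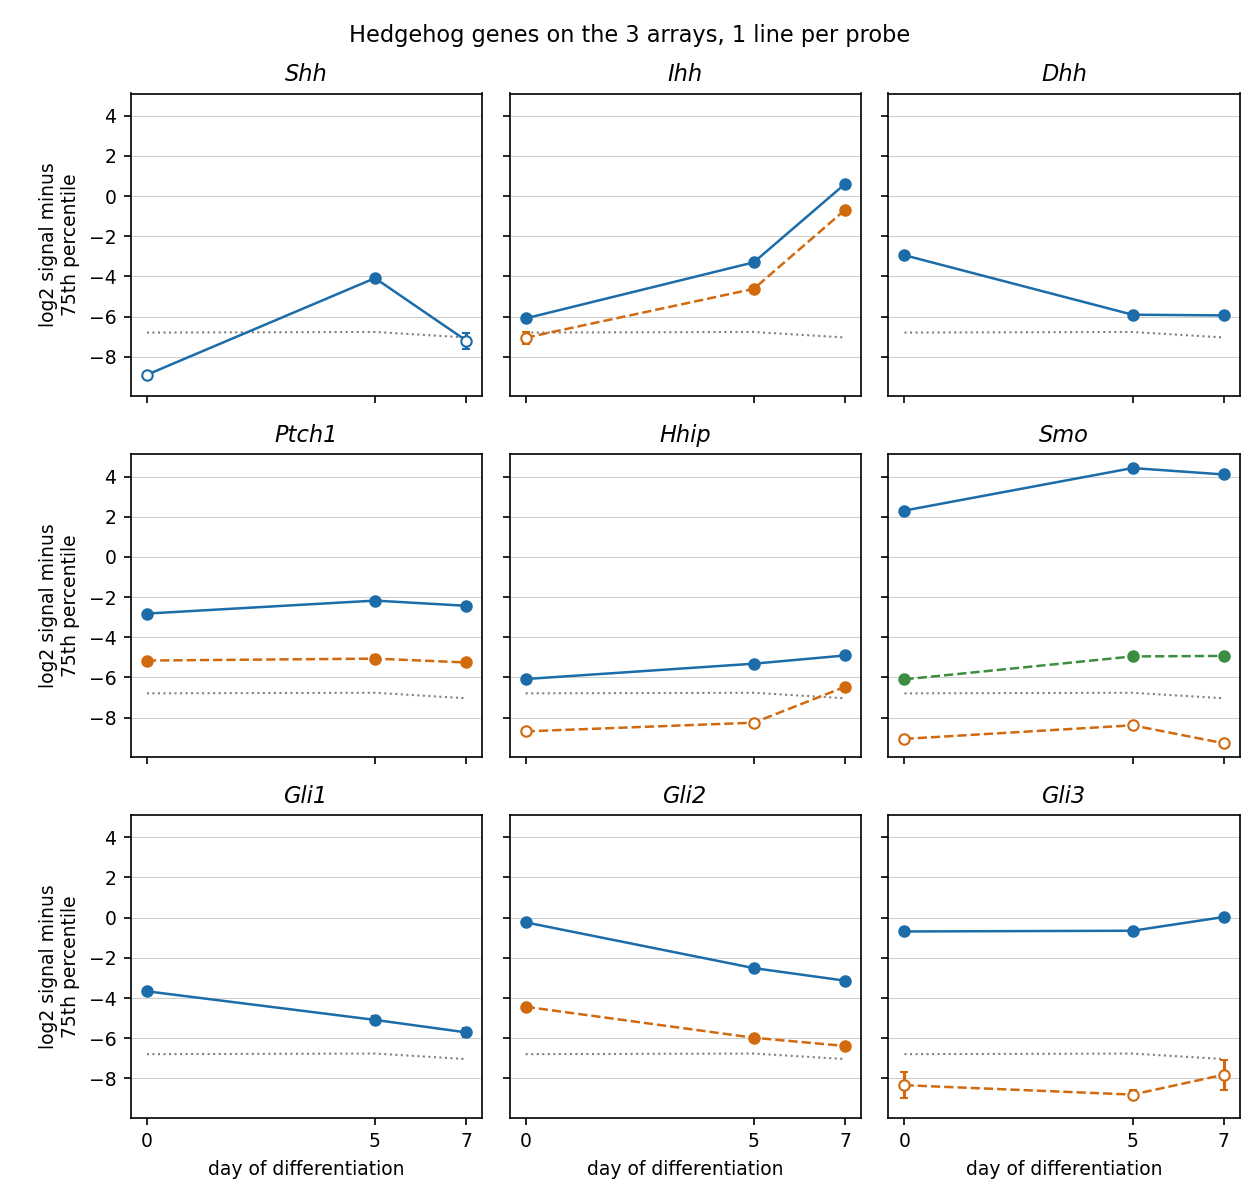
Level of every probe of the 9 Hedgehog genes (log2 signal minus the array's 75th percentile) against the day of differentiation, with 1 line per probe and the gene's representing probe in solid blue. Filled points are well above background, open points are not, bars are the SD between 10 spots of 1 array where a probe has them, and the dotted line is the floor; Ihh reached 0.60 on day 7 from -6.09 on day 0, while Dhh, Gli1 and Gli2 were highest on day 0.

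Ihh, the Hedgehog ligand of visceral endoderm, gut and cartilage, had the largest difference of the 9 genes, that between days 0 and 7. Its representing probe, at chr1:74994421-74994480 (minus strand), read -6.09, -3.30 and 0.60 on days 0, 5 and 7. The processed signals behind these levels were 23.0, 208 and 3120. All 3 values were well above background, and each later stage was the higher one.

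Day 5 exceeded day 0 by 2.79 (6.91-fold), day 7 exceeded day 5 by 3.90 (14.95-fold), and day 7 exceeded day 0 by 6.69 (103-fold). Of the 21653 genes compared, Ihh was at rank 851, 84 and 48 from the highest in these comparisons. A second probe of Ihh, at chr1:74992348-74992407 and printed as 10 spots, read -7.05 ± 0.30, -4.62 ± 0.14 and -0.69 ± 0.06 in the order of days (mean ± SD over 10 spots of 1 array). On day 0 it was well above background in 1 of 10 spots only, so its differences from day 0 are bounds: at least 4.52-fold for day 5 and at least 68.8-fold for day 7. Between days 5 and 7 it differed 15.2-fold, so both probes gave the same order of stages and nearly the same late step. The day 0 signal was low, and the fold from day 0 was smaller with normexp background correction. That correction, here and below, also adds an offset of 50 to every spot, which by itself lowers the folds of dim signals. The effect of the offset was not separated from that of the background step. With the correction Ihh was 2.29-fold higher on day 5 and 27.3-fold on day 7 than on day 0, and 11.9-fold between them.

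Markers of extraembryonic endoderm, a known source of Ihh, were present on all 3 arrays and were mostly higher on day 7, as Ihh was. All 12 genes of that list were well above background on each array, and their summed level, in units of the 75th percentile, ran from 54.0 through 68.6 to 237 over the stages, a sum in which Sparc (4.47, 5.88 and 7.03) and, on day 0, Rhox5 (4.83, 1.75 and 3.95) weigh most. On day 5, where Ihh was already higher than on day 0, 6 of the 12 were at least 2-fold higher and 3 lower: Lama1 (12.6-fold), Rhox5 (8.44-fold) and Sox7 (2.10-fold). Of all genes compared, 16.5% were higher and 16.1% lower there. On day 7, 11 of the 12 were at least 2-fold higher than on day 5, beside 5.97% of all genes. These included the endocytic receptor gene Cubn (-1.51, -1.31 and 3.49) and its partner Amn (-2.10, -0.48 and 1.18). The mesenchyme (9 of 12) and hepatic (4 of 6) lists were also mostly higher on day 7 than on day 5. No list of gut epithelium genes was made. Afp and Hnf4a stand in both this list and the hepatic list, whose 6 genes summed to 0.121, 1.12 and 27.9. The part of such cells in the Ihh values was not tested. In whole cultures, fewer cells of a type and less RNA per cell cannot be told apart.

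Shh, the ligand of the node, notochord and gut endoderm, was highest on day 5. Its probe, at chr5:28783983-28784042 (minus strand), was printed as 10 spots and read -8.89 ± 0.14 on day 0 (9 spots kept), -4.08 ± 0.11 on day 5 and -7.19 ± 0.40 on day 7 (10 spots each). The processed signals were 3.27, 121 and 14.5. All 10 spots were well above background on day 5, none on day 0 and 3 of 10 on day 7.

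Among the spots, the highest on day 0 was -8.69, the range on day 5 was -4.22 to -3.81, and that on day 7 was -7.74 to -6.67. These ranges show scatter within an array, not between cultures. Because the probe counted as dim on days 0 and 7, the difference was set at no less than the floor allows. From day 0 to day 5 the difference was at least 6.55-fold upwards, and from day 5 to day 7 at least 7.75-fold downwards. No difference was given between days 7 and 0, where both arrays were dim. With normexp background correction, both bounds shrank, to 2.31-fold and 2.29-fold.

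The node and notochord list held 5 genes on the array, Shh among them (Noto had no probe under that name), and 4, 5 and 4 of them were well above background on days 0, 5 and 7. Their summed level was 1.24, 4.08 and 3.15. Foxj1, a ciliogenesis factor of the node, was also highest on day 5 (-0.78, 1.06 and -1.31), whereas T, the notochord and streak factor (-1.25, 0.73 and 1.31), and the BMP antagonist Nog (-5.48, -3.94 and -3.21) were highest on day 7 and Chrd differed little (-2.26, -2.27 and -2.78). The part of these cells in the Shh values was not tested. A further transcript, 9530036O11Rik, is listed by RefSeq as a synonym of Shh but its probe lies on the opposite strand, at chr5:28890953-29069179; it read -2.92, -3.30 and -3.07 and was kept apart from Shh.

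**Figure D2:**
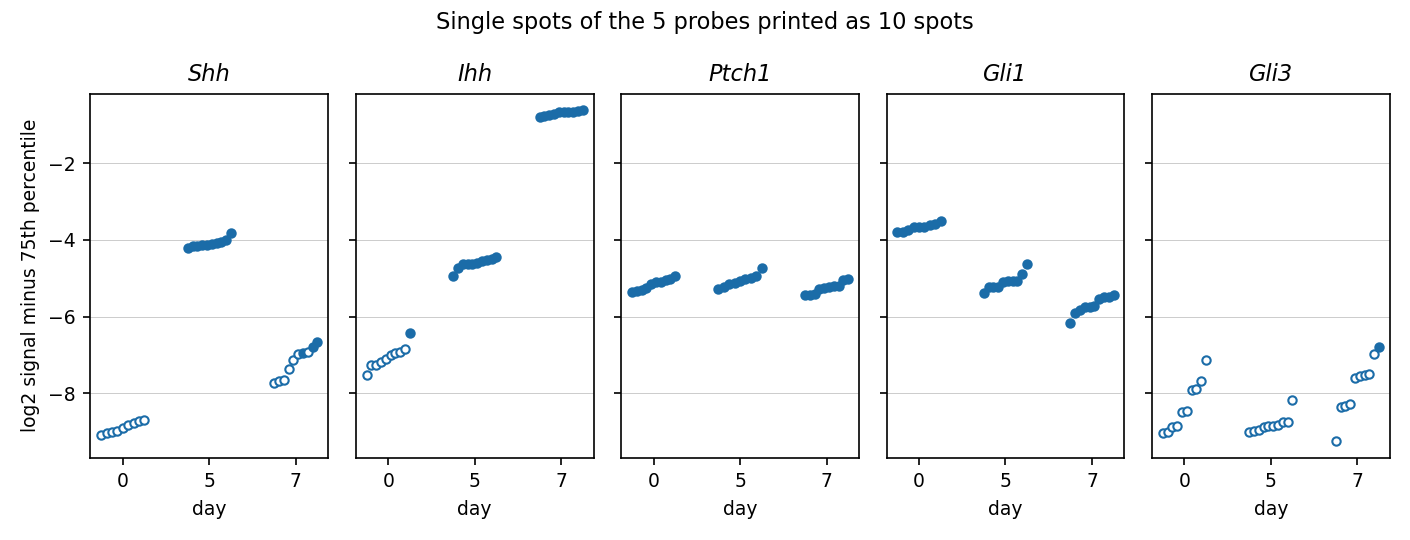
Every kept spot of the 5 Hedgehog probes printed 10 times, as log2 signal minus the array's 75th percentile on days 0, 5 and 7, sorted within each array; filled points are spots well above background. Shh spots were well above background on day 5 and mostly dim on days 0 and 7, Ihh spots reached -0.79 to -0.61 on day 7, Ptch1 spots lay between -5.45 and -4.74 on all days, and the Gli3 probe was dim throughout apart from 1 spot on day 7.

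Dhh, the ligand of Sertoli and Schwann cells, was brightest in the ES cells. Its single probe, at chr15:98723465-98723524 (minus strand) and printed as 1 spot, read -2.94, -5.90 and -5.94 on days 0, 5 and 7, from processed signals of 203, 34.2 and 33.5. All 3 values were well above background. The day 0 level was the high one, and the later levels lay 0.03 apart.

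Dhh was 7.79-fold lower on day 5 and 7.98-fold lower on day 7 than on day 0. With normexp background correction it was 3.69-fold and 3.50-fold lower. The list of endothelial, Schwann and Sertoli cell genes did not follow it: its summed level was 0.708, 1.71 and 3.06, with 7, 7 and 8 of its 8 genes well above background. Of these, Pecam1, which ES cells also express, was highest on day 0 (-1.88, -6.79 and -5.31), and the Schwann and neural crest factor Sox10 was also highest there (-2.20, -3.07 and -3.26). Kdr, the VEGF receptor of endothelium and early mesoderm, ran the other way (-5.23, 0.02 and 0.79).

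The receptor Ptch1, itself a target of the pathway, stayed within 2-fold. Its representing probe, at chr13:63610298-63610357 (minus strand), read -2.82, -2.18 and -2.43 on days 0, 5 and 7, from processed signals of 221, 454 and 380. Day 5 was the highest by 0.65 (1.56-fold) over day 0, and day 7 exceeded day 0 by 0.39 (1.31-fold).

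The other Ptch1 probe, at chr13:63612907-63612966 with 10 spots, read -5.16 ± 0.14 on day 0, -5.06 ± 0.16 on day 5 (9 spots kept) and -5.26 ± 0.15 on day 7. Its spot ranges overlapped between all 3 days, and its differences between days were at most 0.19 in size. Both probes were well above background on every array.

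Hhip, a membrane protein that binds and sequesters Hedgehog ligands and is a target gene, had a low signal that was highest on day 7. Its representing probe, at chr8:82496214-82496273 (minus strand), read -6.08, -5.32 and -4.91, from processed signals of 23.1, 51.4 and 68.4. Day 7 was 2.25-fold higher than day 0, day 5 was 1.70-fold higher than day 0, and day 7 was 1.33-fold higher than day 5. The second probe, at chr8:82490729-82490788, was well above background on day 7 only (-8.68, -8.25 and -6.47) and there exceeded day 0 by a bound of 0.32. The day 7 call rested on signals close to background: with normexp background correction the difference from day 0 was 1.25-fold.

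Smo, the signal transducer below Ptch1, was higher on both later days. Its representing probe, at chr6:29711225-29711284 (plus strand), read 2.30, 4.42 and 4.10 on days 0, 5 and 7, from processed signals of 7727, 43927 and 35262. Day 5 was 4.33-fold and day 7 3.48-fold above day 0, and the later days lay 1.25-fold apart.

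The probe split over 1234 bases read -6.10, -4.96 and -4.93 and gave smaller differences in the same direction, 2.20-fold for day 5 and 2.24-fold for day 7. The remaining probe, at chr6:29687915-29687974, was dim on all arrays (-9.06, -8.38 and -9.28) and gave no difference. The size of the Smo difference therefore depended on the probe, and the cause was not tested. A probe of the neighbouring gene Ahcyl2, 8295 bases away on the same strand, read -6.38, -6.76 and -6.83, close to the floor.

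**Figure D3:**
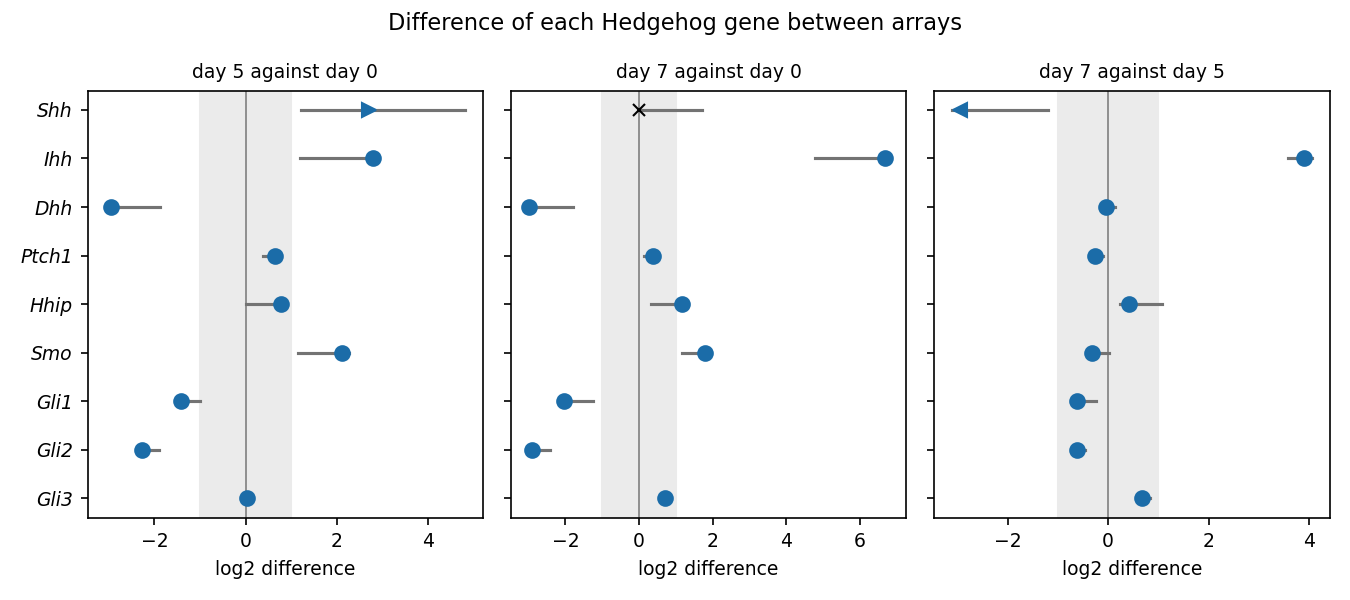
Log2 difference of each Hedgehog gene between arrays in the 3 comparisons. Circles are measured differences, triangles are bounds pointing away from 0, the cross marks Shh where both arrays were dim, the grey band is the range under 2-fold, and grey lines span the values over up to 12 settings (the one reported included, without other fold limits and without normexp fitted on all spots); Ihh lay far to the right in day 7 against day 0 and day 7 against day 5, and Gli1, Gli2 and Dhh lay left of the band in both comparisons with day 0.

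Among the Gli transcription factors, Gli1 and Gli2 were lower at both later stages while Gli3 was not. Gli1, an activator and the most used readout of Hedgehog signalling, has 1 probe here, the one printed above. Its spots read -3.66 ± 0.09 on day 0 (9 spots kept), -5.09 ± 0.21 on day 5 and -5.71 ± 0.23 on day 7 (10 spots each), from processed signals of 121, 60.9 and 39.6. All kept spots were well above background, and their ranges were -3.78 to -3.52, -5.38 to -4.63, and -6.16 to -5.44 in the order of days.

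Gli1 was 2.68-fold lower on day 5 and 4.13-fold lower on day 7 than on day 0, and 1.54-fold lower on day 7 than on day 5. With normexp background correction these were 2.02-fold, 2.39-fold and 1.18-fold. The spot ranges show scatter within an array, not between cultures. The probe of Arhgap9, a neighbour 2415 bases away on the opposite strand, also read highest on day 0 (-1.98, -5.10 and -5.48).

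Gli2, the main activator downstream of Smo, was read by 2 probes that gave the same order of stages. The representing probe, at chr1:120731255-120731314 (minus strand), read -0.23, -2.51 and -3.13, from processed signals of 1330, 360 and 234. The probe printed above read -4.43, -5.98 and -6.39. Both were highest on day 0 and lowest on day 7.

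The representing probe of Gli2 was 4.85-fold lower on day 5 and 7.47-fold lower on day 7 than on day 0. The other probe was 2.91-fold and 3.87-fold lower. Between days 5 and 7 the probes differed by 1.54-fold and 1.33-fold, both below 2-fold. With normexp background correction the representing probe was 4.35-fold and 6.16-fold lower than on day 0.

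Gli3, which acts mainly as the repressor of the family, read -0.69, -0.65 and 0.03 at chr13:15821502-15821561 (plus strand), from processed signals of 971, 1306 and 2099. Day 7 was 1.65-fold above day 0 and 1.61-fold above day 5, and days 0 and 5 lay 1.03-fold apart, so no difference reached 2-fold. Its other probe, at chr13:15818729-15818787 with 10 spots, was dim on all arrays (-8.34 ± 0.65, -8.81 ± 0.23 and -7.82 ± 0.74). Mesenchyme, in which Gli genes and Ptch1 are typically found, had markers that differed from Gli1 and Gli2 in direction mainly on day 7: 11, 11 and 12 of 12 were well above background on days 0, 5 and 7, and their summed level was 23.0, 41.5 and 83.8, a sum in which Vim (4.31, 5.15 and 5.91) weighs most on each array. On day 5, 4 of them were at least 2-fold higher and 2 lower than on day 0, with a median of 0.54, and on day 7, 11 were higher and 1 lower. The shares of all genes were 16.5% and 16.1% on day 5 and 16.2% and 19.1% on day 7. The 1 lower on day 7 was Thy1, by 11.1-fold, and it was 5.85-fold lower on day 5 as well. Foxf1 alone was not well above background on days 0 and 5.

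**Figure D4:**
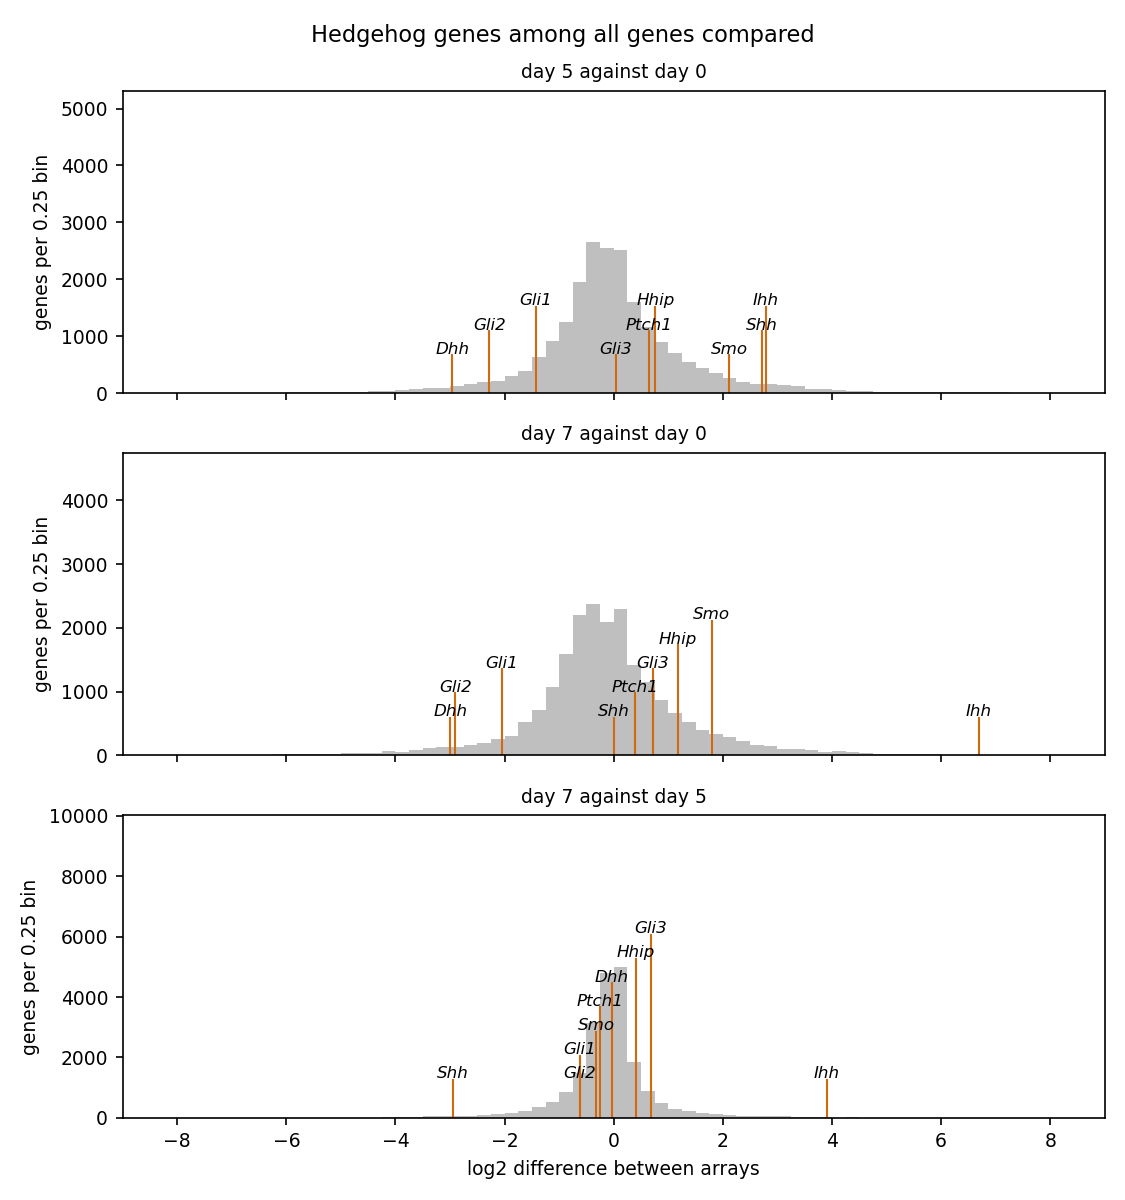
Histograms of the log2 difference of all 21653 genes compared (grey, number of genes per bin of 0.25) with the 9 Hedgehog genes as orange lines; the heights of the orange lines only separate the names. Ihh lay at 6.69 and 3.90 in the comparisons of day 7 with days 0 and 5, while 7 of the 9 genes lay within 2-fold in day 7 against day 5.

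Across stages the 9 genes fell into a few orders. Ihh was highest on day 7, Shh on day 5, and Dhh, Gli1 and Gli2 on day 0. Hhip was also highest on day 7, but only 1.33-fold above day 5. Its call against day 0 was lost with normexp background correction (1.25-fold). Smo was higher on both later days, which lay within 2-fold of each other and in opposite order at its 2 detected probes, and Ptch1 and Gli3 stayed within 2-fold. Counted by probe, 5 of 16 were higher and 4 lower on day 5 than on day 0, the same numbers on day 7 against day 0, and 2 higher and 1 lower on day 7 against day 5. The share of all probes called was not computed, and probes of the same gene are not separate members. These probe counts therefore only describe the set.

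For the 8 members well above background on all arrays, the genes nearest in pattern were taken by the Euclidean distance between the log2 differences of days 5 and 7 from day 0, among 14031 named genes that were also well above background on the 3 arrays. Ihh had the fewest close genes: Defa31 lay at a distance of 0.16 and Dscam at 0.43, and these were the only 2 within 0.5. For Dhh the nearest were Olfr985 (0.071) and Inhbe (0.072), with 89 genes within 0.5. For Gli1 they were Mmel1 (0.016) and Ppfia3 (0.035), with 321 within 0.5, and for Gli2 Lrrn4cl (0.030) and Zfp709 (0.040), with 121.

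For the remaining members, Smo was nearest to Zmat1 (0.023) and Tcf12 (0.034), with 268 genes within 0.5. Ptch1 was nearest to Lysmd2 (0.020) and Nod1 (0.025), with 1721 genes within 0.5, and Hhip to Egfr (0.034) and Hsdl1 (0.034), with 850. Gli3 was nearest to Pgrmc2 (0.0093) and Acat3 (0.031), with 1055. These distances rest on 3 arrays and describe likeness of 2 differences each.

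The other genes of the pathway were read from 4 lists. Their counts describe each list, and the shares of all genes called are those given with the members. Of the genes for ligand release and lipid attachment, 6 of 7 were compared (Disp2 was dim). On day 5 against day 0, 1 was higher and none lower, with a median of 0.25; this was Disp1, the exporter of lipid-modified ligand, at 2.47-fold, whose 2 probes had a median log2 difference of 0.14. Against day 0, day 7 had 2 higher, the secreted ligand carriers Scube1 (3.15-fold) and Scube2 (2.07-fold), with a median of 0.89. Between days 5 and 7 Scube1 alone was higher (3.69-fold), and the median was 0.04. Neither Scube gene kept its day 7 against day 0 call with normexp background correction, where Scube1 was 1.64-fold higher. By the median of its 3 probes Scube1 was 1.71-fold higher on day 7 than on day 5 and was not called. Hhat, the acyltransferase that palmitoylates the ligands, stayed within 2-fold in every comparison.

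Surface proteins that bind the ligand were mostly higher at the later stages than on day 0. Of 8, 7 were compared (Gpc5 was dim). On day 5 against day 0, 4 were higher and 1 lower, with a median of 2.00, beside 16.5% and 16.1% of all genes compared. Higher were the co-receptor Gas1 (28.1-fold) and the glypicans Gpc4 (18.9-fold), Gpc3 (8.39-fold) and Gpc6 (3.99-fold). The co-receptor Boc was 2.40-fold lower, a call that none of its other probes gave. Gas1, Gpc3 and Gpc4 read -3.78, 1.91 and 0.35 on day 0 and 1.03, 4.98 and 4.59 on day 5.

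By day 7, against day 0, 5 of the 7 were higher and none lower, with a median of 3.64, beside 16.2% and 19.1% of all genes. Gpc3 (16.8-fold), the endocytic receptor Lrp2 (14.5-fold), Gpc4 (12.5-fold) and Gas1 (12.4-fold) differed most. On day 7 against day 5, 2 were higher, Lrp2 (20.4-fold) and Gpc3 (2.00-fold), and Gas1 was 2.26-fold lower, with a median of 0.21. The shares of all genes there were 5.97% and 8.38%. Lrp2 is also abundant in visceral endoderm, whose list is given with Ihh; its part in this value was not tested. With normexp background correction Gpc6 was 1.80-fold higher on day 5 than on day 0, and Gas1 was 18.2-fold higher there.

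The 27 genes of cytoplasmic and ciliary transduction were all well above background on all arrays, and most stayed within 2-fold. On day 5 against day 0, 4 were higher and 1 lower, with a median of 0.28; these were the arrestin gene Arrb1 (4.04-fold), the kinases Csnk1e (3.56-fold) and Gsk3b (2.06-fold), the kinesin Kif27 (3.27-fold) and, lower, the ciliary protein gene Evc (3.47-fold). On day 7 against day 0, 3 were higher, Arrb1 (2.94-fold), Csnk1e (2.40-fold) and Gsk3b (2.20-fold). There 4 were lower, Kif27 (3.39-fold), Evc (2.57-fold), Csnk1a1 (2.20-fold) and Arrb2 (2.13-fold), with a median of -0.06. Between days 5 and 7 Kif27 alone was called, 11.1-fold lower, and the median was -0.22. The Kif27 probe read -6.93 on day 7, near the floor, and none of its calls was given by the gene's other probe. Sufu, the cytoplasmic inhibitor of the Gli proteins, read 0.22, 0.99 and 0.68, and the Gli-regulating kinesin Kif7 read -0.84, -0.40 and -0.75, neither reaching 2-fold.

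Kif27 and Gsk3b lost their calls against day 0 with normexp background correction, where Kif27 was 1.87-fold higher on day 5 and 1.70-fold lower on day 7; its difference between days 5 and 7 was then 3.17-fold. By the median of their probes Arrb1 was 2.30-fold higher on day 5 and 1.98-fold on day 7 than on day 0, and Csnk1a1 1.77-fold lower on day 7. Neither of these day 7 values was called. Gsk3b was 1.47-fold and 1.61-fold higher on days 5 and 7 by that median, and was not called. Evc2 gained calls by it, 2.30-fold and 2.78-fold lower than on day 0. Stk36 was then called 2.31-fold higher on day 5 than on day 0, and 2.12-fold lower on day 7 than on day 5. Sufu, Kif7, Evc2, Stk36, Hhat and the neighbouring genes Arhgap9 and Ahcyl2 were named after their values were seen. So were the marker genes given as examples beside the ligands and Gli genes.

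Textbook target genes other than the members were called higher more often than lower in each comparison. Of 24, 20 were compared (Foxl1, Nkx3-2, Pax1 and Osr2 were not). Foxf1, Foxf2 and Nkx2-2 were dim on day 0 and entered the comparisons through later arrays alone. On day 5 against day 0, 9 were higher and 4 lower, with a median of 0.81, beside 16.5% and 16.1% of all genes compared. The forkhead gene Foxf2 was at least 88.9-fold higher, the Wnt modulator Sfrp1 18.7-fold, the EMT factor Snai1 7.60-fold and the heart and limb factor Hand2 7.52-fold, while Tbx3 was 8.29-fold, Bmp4 6.47-fold, Mycn 2.65-fold and Nkx2-5 2.31-fold lower.

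On day 7 against day 0, 11 were higher and 1 lower, with a median of 1.15, beside 16.2% and 19.1% of all genes. Foxf2 was at least 261-fold, Igf2 17.7-fold, Hand2 16.5-fold and the cyclin gene Ccnd2 10.7-fold higher, and Ccnd1 was 2.22-fold lower. Between days 5 and 7, 8 were higher and 3 lower, with a median of 0.80, beside 5.97% and 8.38% of all genes. Tbx3 (11.2-fold), Bmp4 (9.91-fold), Igf2 (6.78-fold) and Nkx2-5 (5.50-fold) were higher, and Sfrp1 (4.36-fold), Nkx2-2 (at least 3.28-fold) and Pax9 (at least 3.25-fold) lower. These genes are also known to answer to other signals, BMP4 among them, which the medium held on days 0 and 7 and not on day 5; its part in these values was not tested.

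Several of these values rested on low signals. With normexp background correction Foxf2 was 16.3-fold higher on day 5 and 46.9-fold on day 7 than on day 0, Hand2 2.38-fold and 4.44-fold, and Nkx2-5 3.58-fold higher on day 7 than on day 5. Nkx2-2 and Pax9 lost their calls with it on day 7 against day 5, at 1.70-fold and 1.55-fold lower. Under it 18 of the 24 pathway genes called on day 5 against day 0 were called, 18 of 26 on day 7 against day 0 and 11 of 16 on day 7 against day 5; when each gene took the median of its probes the numbers were 20, 21 and 14. Nkx2-5 lost its calls against day 0 with normexp background correction. The counts were not tested against the shares of all genes, and no list is called particular from them.

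**Figure D5:**
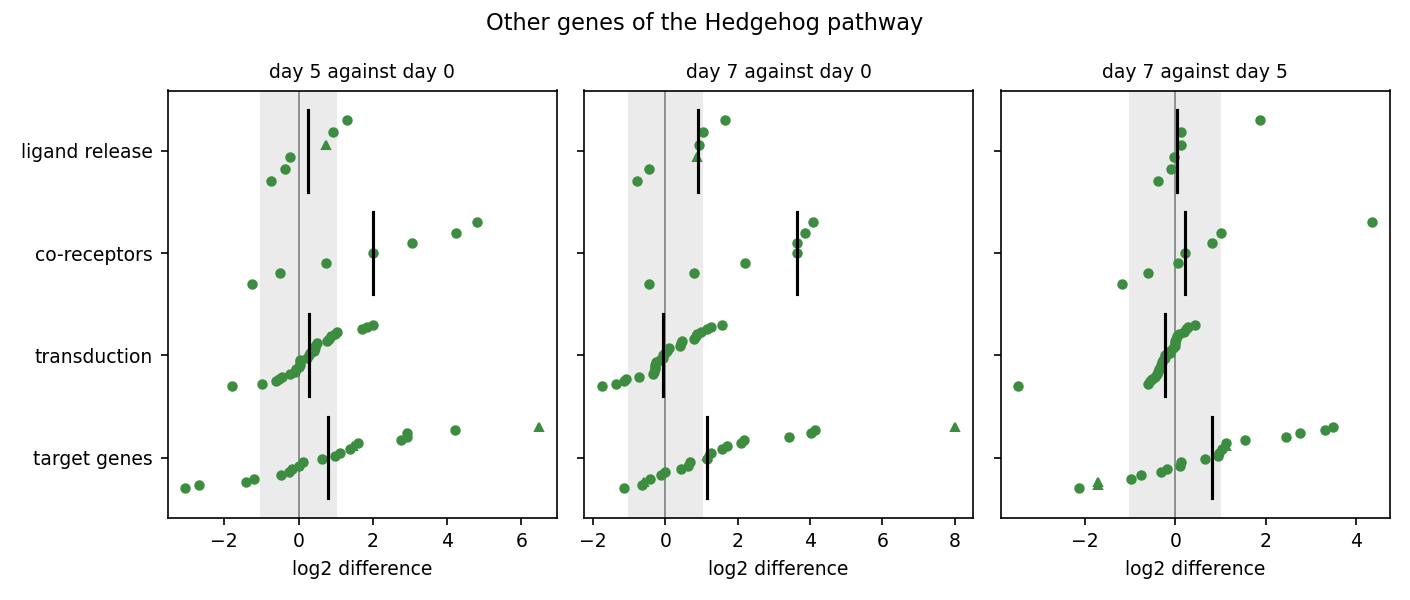
Log2 difference of each compared gene in the 4 lists of other Hedgehog pathway genes, in the 3 comparisons; circles are measured differences, triangles are bounds, black bars are list medians and the grey band is the range under 2-fold. The receptor and target lists reached furthest to the right in the comparisons with day 0, while 26 of 27 transduction genes lay inside the band on day 7 against day 5.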

How the data were processed

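Per the labels, Cy3-labelled cRNA of 1 sample per stage was hybridised to 1 array each. Per the file headers, spots were extracted with Agilent Feature Extraction 10.5.1.1 and placed on mm9. The deposited scanner files hold intensity per spot, and its background-corrected processed signal was used. The authors' value table holds log2 values for 41252 rows; 41174 matched a probe, each column correlated with the processed signals at r of 0.9998 or above, each had a median of 7.17, and values are not centred per gene.

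Gene spots (43379 per array) were converted to log2 and the 75th percentile subtracted. Marked spots were left out (149, 104 and 131 on days 0, 5 and 7), as were control spots, and spots of a probe were averaged. Well above background means that over 50% of a probe's spots had the software's mark for it. RefSeq accessions of GRCm38.p6 named 24831 probes and its symbols 6042; 10285 kept the file's name. A gene was represented by the probe well above background on most arrays, then the brightest. A dim side was raised to the floor and the difference given as a bound; a gene dim on both arrays had none. The calling was tested on simulated data. 1 gene of the lists is not reported here and was left out of their counts. Named genes were all members, up to 4 called genes per list and direction, 9 stage markers and 2 genes nearest to each member; the report lists those named outside this rule. The members and lists were chosen with earlier results of these data known, and the forkhead motif was added later. Alternatives included limma 3.58.1 normexp with an offset of 50, other scalings, probe rules and fold limits. Python 3.11.15, numpy 2.4.6, pandas 2.3.3 and R 4.3.3 were used.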

Additional observations from a re-analysis of the deposited data

How the results depend on the processing

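No paired analysis was possible because each stage has 1 array. Of 14 alternatives, 12 were planned; normexp fitted on all spots and the demand that every spot be well above background were added after seeing the data. The counts of members called on day 7 against day 0 stayed within 1.5 times of 3 in each direction under all 14. With normexp fitted on all spots, 1 member was higher and 6 were lower on day 5 than on day 0, and 4 were higher and 0 lower on day 7 than on day 5; Ihh on day 5 against day 0 then read -2.12 and Hhip on day 7 against day 0 read -1.44, both reversed. In that fit the background mean on day 0 was -1242 against 5.67 without marked spots, and the lowest spot read -60709 on day 0. With a 1.5-fold limit, 5 members were higher on day 5 than on day 0, and 2 were higher and 3 lower on day 7 than on day 5. When each gene took the median of its probes, 2 were higher on day 7 than on day 5, Hhip joining Ihh. With only probes well above background on all arrays, 0 were lower there, since Shh was then not compared. Of the values of single members under alternatives, 352 kept their call, 18 changed it and 2 reversed; of the list counts, 283 stayed within 1.5 times and 53 did not. Signals near background limit Shh, Hhip and the day 0 value of Ihh. They also limit Dhh and Gli1 on days 5 and 7, whose falls from day 0 were smaller with normexp background correction.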
